A study of Mus musculus with 12 samples.

Results

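The 50 genes described here encode proteins that copy chromosomal DNA or divide the copied chromosomes between daughter cells. They are 24 replication genes and 26 mitosis genes, taken as a fixed list of symbols and found by Ensembl identifier among the 39179 gene identifiers of each count table. All 50 were found, and all 50 were among the 17967 genes that passed the filter on low counts. The libraries came from the calvaria, the skull vault, of C57BL/6 mouse embryos at embryonic day 17.5. They form 4 groups of 3 libraries each: WT vehicle, Runx2+/- vehicle, WT MS-275 and Runx2+/- MS-275. MS-275 (entinostat) inhibits class I histone deacetylases, and Runx2 encodes a transcription factor required for bone-forming cells. Per the labels' protocols, WT and Runx2+/- parents were mated at 8 weeks, and MS-275 was given to the pregnant dam by intraperitoneal injection at 10 mg/kg on days 14.5 and 16.5. The embryos of the MS-275 groups were thus exposed through their mother, and the labels describe no injection for the vehicle groups beyond the word vehicle. The labels give the Runx2+/- genotype without the part of the gene that is deleted. They also do not say that replicates came from separate embryos or litters, so the p-values measure only the spread between these samples, which may be technical.

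A cell about to divide first loads the Mcm2 to Mcm7 ring onto replication origins with Cdc6 and Cdt1, and Cdc45 and the GINS proteins then turn the ring into the active helicase. DNA polymerase alpha with its primase starts each new strand, the sliding clamp Pcna holds the later polymerases on DNA, and Fen1 and Lig1 join the fragments of the lagging strand. Many of these genes are transcribed at the entry into S phase by E2F factors. Genes for mitosis are transcribed later, in G2, by complexes that bind the cell cycle homology region (CHR) and the neighbouring CCAAT boxes of their promoters. In fetal bone, cell division is carried by precursors of osteoblasts and chondrocytes and by blood, vessel and skin cells of the same tissue, while mature osteoblasts divide little.

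E2F and CHR motifs were found in unequal shares of the replication and mitosis promoters, as a description with no test, and 5 promoters are shown for their different matches. RefSeq promoters (GRCm38.p6, 250 bases before to 50 after the annotated start) matched 41 of the 50 members, 20 replication and 21 mitosis genes. The 9 members with no entry were Mcm4, Gins1, Gins2, Ccne2, Ccna2, Aurkb, Kif20a, Tpx2 and Foxm1. An E2F motif (TTTCCCGC, TTTGGCGC, TTTCGCGC or TTTGCCGC, either strand) lay in 9 of 20 replication promoters (45%) and in 1 of 21 mitosis promoters (4.76%), beside 2.61% of all 27025 promoters in the table. The CHR motif (TTTGAA, either strand) lay in 3 of 20 replication promoters (15%) and 16 of 21 mitosis promoters (76.2%), beside 20.2% of all. The CCAAT motif (either strand) lay in 12 of 20 (60%) and 19 of 21 (90.5%), beside 41.1% of all. Among the 13052 promoters of genes tested, the nearer comparison, the shares were 4.12% for E2F, 14.8% for CHR and 41.9% for CCAAT. The E2F share of the mitosis promoters and the CHR share of the replication promoters were thus close to those of genes tested. Pola1 and Mcm6 are shown for their E2F matches, Hmmr for its CHR match and 5 CCAAT matches, Cdk1 because it was the mitosis member with an E2F match, and Pcna as a replication gene with neither an E2F nor a CHR match. Capitals mark the matches in the sequences, which run 5′ to 3′ along the strand of the gene. In Mcm6 a forward and a reverse E2F match overlap in 1 run of capitals.
Pola1, chrX:93632106-93632405, minus strand: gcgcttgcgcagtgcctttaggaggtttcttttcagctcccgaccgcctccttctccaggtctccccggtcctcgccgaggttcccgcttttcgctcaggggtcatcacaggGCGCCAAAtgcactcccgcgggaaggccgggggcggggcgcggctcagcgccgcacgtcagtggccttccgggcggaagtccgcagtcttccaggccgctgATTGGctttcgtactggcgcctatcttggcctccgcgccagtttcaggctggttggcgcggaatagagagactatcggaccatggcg
Mcm6, chr1:128359656-128359955, minus strand: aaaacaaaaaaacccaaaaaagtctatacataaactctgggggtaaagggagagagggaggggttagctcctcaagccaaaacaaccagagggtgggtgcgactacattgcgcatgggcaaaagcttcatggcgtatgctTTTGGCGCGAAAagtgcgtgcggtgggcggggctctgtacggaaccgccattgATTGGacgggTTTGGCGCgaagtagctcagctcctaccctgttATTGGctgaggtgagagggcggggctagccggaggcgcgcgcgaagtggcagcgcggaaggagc
Pcna, chr2:132253131-132253430, minus strand: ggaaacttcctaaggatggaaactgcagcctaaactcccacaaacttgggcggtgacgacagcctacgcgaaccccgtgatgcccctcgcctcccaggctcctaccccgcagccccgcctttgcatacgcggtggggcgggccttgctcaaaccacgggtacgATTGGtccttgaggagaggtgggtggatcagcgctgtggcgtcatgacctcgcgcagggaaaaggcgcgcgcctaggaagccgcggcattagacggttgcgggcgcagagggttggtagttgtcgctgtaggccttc
Hmmr, chr11:40733388-40733687, minus strand: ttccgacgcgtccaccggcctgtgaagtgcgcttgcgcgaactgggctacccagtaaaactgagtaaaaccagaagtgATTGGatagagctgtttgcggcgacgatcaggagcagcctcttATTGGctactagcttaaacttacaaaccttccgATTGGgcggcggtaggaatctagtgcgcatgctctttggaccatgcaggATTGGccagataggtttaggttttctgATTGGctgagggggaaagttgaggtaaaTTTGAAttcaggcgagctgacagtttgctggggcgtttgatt
Cdk1, chr10:69352863-69353162, minus strand: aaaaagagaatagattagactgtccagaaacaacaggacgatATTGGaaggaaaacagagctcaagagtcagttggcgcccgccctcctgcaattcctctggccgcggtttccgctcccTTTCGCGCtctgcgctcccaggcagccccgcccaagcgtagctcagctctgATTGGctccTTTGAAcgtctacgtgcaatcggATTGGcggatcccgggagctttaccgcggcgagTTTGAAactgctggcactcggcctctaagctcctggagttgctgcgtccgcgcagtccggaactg
A match is a run of letters in the window and was not tested as a binding site.

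The 12 libraries held 13307456 to 19399760 counts in genes, and the lowest count of a member other than Fen1 was 80 in any library. Values below are CPM, a gene's counts at a common library size, with library sizes adjusted by TMM, a trimmed mean of the log ratios between libraries, which sets them so that most genes do not differ between them, and they are compared across libraries for 1 gene at a time. In the 6 vehicle libraries the TMM factor was 1.18 to 1.32. In 5 of the 6 MS-275 libraries it was 0.598 to 0.820, and in Runx2+/- MS-275 replicate 3 it was 1.33. That library stood apart from the other MS-275 libraries: osteoblast markers (11 of 11 found) summed to 3607 CPM there and to 40336 to 81574 CPM in the other 5, and mitochondrially encoded genes took 9.48% of its counts against 12.7% to 24.2%. Its suprabasal epidermal (1305 CPM), basal epidermal (801 CPM) and lens (736 CPM) markers were closer to those of most vehicle libraries than to the other 5 MS-275 libraries, where they reached at most 15.2, 107 and 12.4 CPM, and it was kept under its label. WT vehicle replicate 3 and Runx2+/- vehicle replicate 3 stood apart from the other 4 vehicle libraries, with lens markers (8 of 8 found) at 14.5 and 16.6 CPM against 783 to 1095 CPM. Under vehicle, Runx2 itself measured 45.5, 42.4 and 46.1 CPM in the WT libraries, and 65.3, 32.8 and 58.1 CPM in the Runx2+/- libraries. Under MS-275 it measured 111, 131 and 88.2 CPM in WT, and 84.0, 93.5 and 34.1 CPM in Runx2+/-. The Runx2+/- libraries were thus not all below WT under vehicle, and with the deleted part unknown these counts do not check the labels.

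In WT calvaria, 5 of the 50 members rose with MS-275 and none fell. The 2 replication genes were Pcna and Pola1, and the 3 mitosis genes were Hmmr, Kif20a and Cenpe, with increases of 1.88-fold to 2.86-fold (edgeR's quasi-likelihood test, adjusted p = 0.0434 to 0.0490). Among all 17967 genes tested, 9.67% were called higher and 9.33% lower (19% in either direction), so the number of members called was close to the share of all genes called higher and does not set the members apart. The fold changes of the members lay above those of most genes: their median on the log2 scale was 0.42 over the 24 replication genes and 0.48 over the 26 mitosis genes, beside -0.13 over all genes tested; scaled to total counts alone, these medians were -0.43, -0.35 and -0.95. With TMM, a log2 fold change above 0 was fitted for 20 of 24 replication genes and 21 of 26 mitosis genes. The calls lay just under the threshold, and the lowest adjusted p of any gene by edgeR in this comparison was 0.0434. Leaving out WT vehicle replicate 1 or 2, any WT MS-275 replicate, Runx2+/- vehicle replicate 1 or 2, or Runx2+/- MS-275 replicate 2 left 0 members and 0 genes called by edgeR. Leaving out WT vehicle replicate 3 gave 4 replication and 4 mitosis members, all higher, beside 13.9% of all genes higher and 16.7% lower. Leaving out Runx2+/- vehicle replicate 3 gave 0 and 2, both higher, beside 5.2% and 5.82%. Leaving out Runx2+/- MS-275 replicate 1 gave 5 and 11 (1 of them lower), beside 15.4% and 15%.

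Pcna encodes the sliding clamp that tethers DNA polymerases to the template and lies on chr2:132249162-132253314 (minus strand, GRCm38, GENCODE M21, as for all positions of genes here). It measured 82.4, 68.9 and 117 CPM in WT under vehicle, and 174, 214 and 335 CPM in WT under MS-275. It measured 83.3, 79.4 and 120.2 CPM in Runx2+/- under vehicle, and 359, 189.8 and 94.7 CPM in Runx2+/- MS-275. With TMM all 3 WT MS-275 libraries lay above all 6 vehicle libraries, whereas the third Runx2+/- MS-275 library lay inside the vehicle range. The WT difference was 1.43 on the log2 scale (SE 0.45, 2.70-fold, edgeR adjusted p = 0.0490). The annotation also holds 2 pseudogene copies of Pcna, so its reads could be split between them, although 1 copy, Pcna-ps2, had only 18 to 48 counts per library against 1195 to 3881 for Pcna.

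Pola1, the catalytic subunit of DNA polymerase alpha (chrX:93304767-93632155, minus strand), measured 36.1, 31.1 and 36.5 CPM in WT under vehicle, and 59.2, 83.4 and 109 CPM in WT under MS-275. In the Runx2+/- groups it measured 33.5, 32.1 and 36.4 CPM under vehicle and 128, 93.7 and 38.6 CPM under MS-275. The 6 vehicle libraries were tightly grouped, and every MS-275 library lay above them, with the third Runx2+/- MS-275 library only just so. The WT difference was 1.28 on the log2 scale (SE 0.37, 2.42-fold, edgeR adjusted p = 0.0449). Rrm1, the large subunit of ribonucleotide reductase, which makes deoxynucleotides, was next among the replication genes at 1.12 (SE 0.36), with an edgeR adjusted p of 0.0521 that missed the threshold. It averaged 105 ± 10.7 CPM in WT under vehicle, and 227 ± 52.3 CPM in WT under MS-275 (SD, n = 3), and these groups did not overlap.

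Hmmr, a spindle protein that binds microtubules (chr11:40701395-40733422, minus strand), measured 34.7, 28.6 and 38.9 CPM in WT under vehicle, and 69.9, 92.4 and 130.2 CPM in WT under MS-275. In the Runx2+/- groups it measured 35.2, 32.3 and 43.1 CPM under vehicle and 139, 98.0 and 37.9 CPM under MS-275. It had the largest rise of the 5 called members, 1.52 on the log2 scale (SE 0.40, 2.86-fold, edgeR adjusted p = 0.0434), and again the third Runx2+/- MS-275 library lay among the vehicle libraries.

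Kif20a, a kinesin of the central spindle needed for cytokinesis, measured 25.7, 20.2 and 24.2 CPM in WT under vehicle, and 47.5, 54.0 and 57.9 CPM in WT under MS-275. In the Runx2+/- groups it measured 24.9, 22.8 and 23.8 CPM under vehicle and 81.0, 64.1 and 27.0 CPM under MS-275. It rose by 1.18 on the log2 scale in WT (SE 0.32, 2.27-fold, edgeR adjusted p = 0.0434). Its exons share 1271 of 4338 bases with Cdc23 on the other strand, whose own log2 fold change was 0.05. Whether the counting used strand is not known from the labels, so reads from the shared bases could be set aside or counted for the wrong gene.

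Cenpe, the kinetochore kinesin that aligns chromosomes (chr3:135212537-135273611, plus strand), measured 57.5, 51.3 and 49.6 CPM in WT under vehicle, and 76.6, 107 and 114 CPM in WT under MS-275. In the Runx2+/- groups it measured 60.5, 56.2 and 60.1 CPM under vehicle and 158, 134 and 72.4 CPM under MS-275. With TMM every MS-275 library lay above every vehicle library. On total counts alone the WT groups overlapped, with 75.7, 66.9 and 58.7 CPM under vehicle and 62.7, 77.8 and 68.4 CPM under MS-275. The WT difference was the smallest of the 5, 0.91 on the log2 scale (SE 0.26, 1.88-fold, edgeR adjusted p = 0.0453).

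**Figure D1:**
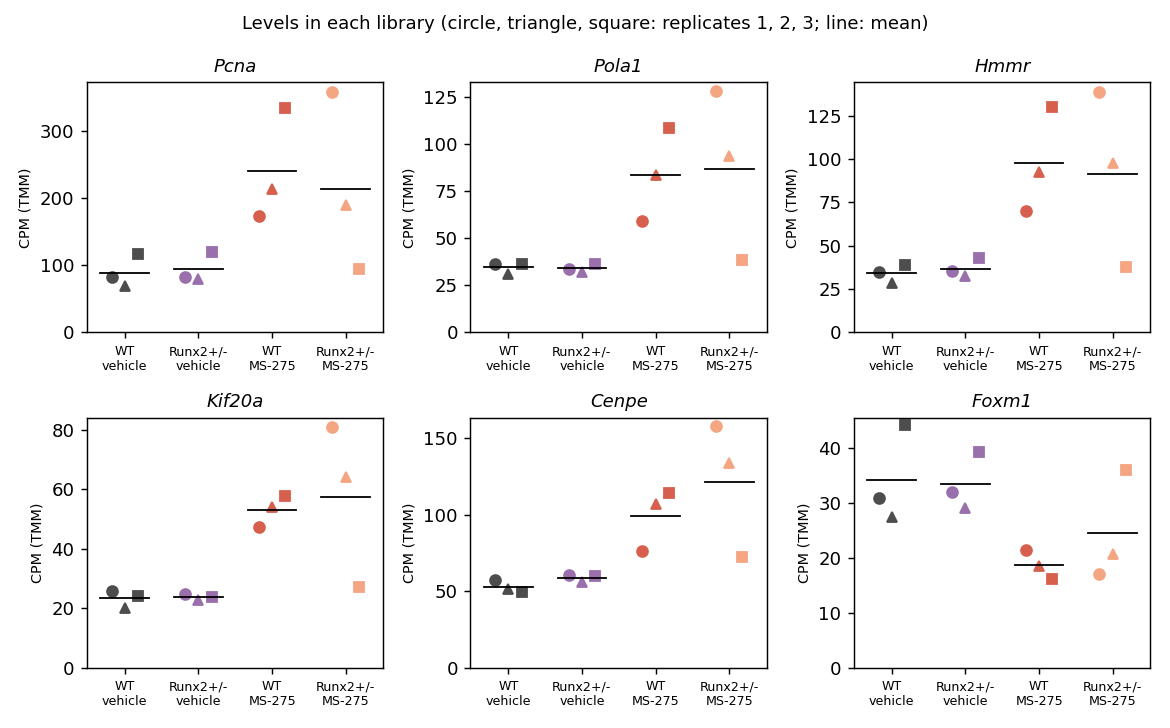
CPM (TMM scaling, vertical axis from 0) of Pcna, Pola1, Hmmr, Kif20a, Cenpe and Foxm1 in each of the 12 libraries, by group. Points are libraries (circle, triangle and square for replicates 1, 2 and 3) and lines are group means; the 3 WT MS-275 libraries lie above the WT vehicle libraries for the first 5 genes and below them for Foxm1, and the square of Runx2+/- MS-275 lies near the vehicle libraries in each panel.

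Read by role, the members had values from well above 0 to below it, and those that follow are WT log2 fold changes. Among the 9 helicase genes the median was 0.30, all 9 were above 0, and none passed the test. Mcm2, Mcm3, Mcm5 and Mcm7 lay between 0.02 and 0.18, and Gins2, a GINS subunit, had the highest value at 1.05. Gins2 shares 2758 of its 4097 exonic bases with Gse1 on the other strand, whose WT value was -0.92, so its counts are uncertain. The 2 licensing genes had opposite signs, 0.45 for Cdc6 and -0.30 for Cdt1. The clamp loader subunits Rfc4 and Rfc3 had 1.22 and 0.40 beside 1.43 for the clamp Pcna, and of these Pcna alone passed.

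The 2 subunits of ribonucleotide reductase had unlike values, which were not tested against each other: Rrm1 had 1.12 and Rrm2, the small subunit, -0.12. Tyms, thymidylate synthase, had 0.85. Prim1, the primase subunit, had 0.63 beside 1.28 for its partner Pola1. The 2 cyclins E, which drive the entry into S phase, were also unlike, with 1.52 for Ccne2 (SE 0.51, edgeR adjusted p = 0.0551) and -0.12 for Ccne1, and E2f1 had 0.01. Of the genes that finish lagging strands, Lig1 had -0.33 and its WT groups did not overlap. Fen1 had 0.77 but rested on 6 to 15 counts per library, and 1909 of its 2422 exonic bases lie under the antisense gene Gm10143, so its level is uncertain.

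The mitosis genes spanned a wider range of WT log2 fold changes, from -0.87 to 1.52. All 4 kinesins were above 0 with a median of 0.80, and 2 of them passed the test, Kif20a and Cenpe. All 4 spindle microtubule binding genes were above 0 with a median of 0.91, and Hmmr passed, while Nusap1 at 1.17 missed with an edgeR adjusted p of 0.0523. The cyclin and cyclin-dependent kinase genes had a median of 0.76, with Cdk1, the kinase that starts mitosis, at 1.29 and its partners Ccnb1 at 1.03, Ccna2 at 0.50 and Ccnb2 at 0.26. The 6 mitotic kinases had a median of 0.36, from 0.79 for the checkpoint kinase Bub1 to -0.57 for Aurkb, the kinase of the chromosomal passenger complex. Cdc20 and Ube2c, which act with the anaphase-promoting complex, had -0.14 and -0.19, and Plk1 had -0.21.

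Foxm1, the transcription factor of many G2 and mitosis genes, had the lowest value of all members. It measured 30.9, 27.3 and 44.1 CPM in WT under vehicle, and 21.4, 18.5 and 16.1 CPM in WT under MS-275. In the Runx2+/- groups it measured 32.0, 29.0 and 39.2 CPM under vehicle and 17.0, 20.7 and 36.0 CPM under MS-275. All WT MS-275 libraries lay below all vehicle libraries, opposite to Hmmr and Kif20a, yet the difference of -0.87 (SE 0.29) missed the threshold with an edgeR adjusted p of 0.0553. Foxm1 was outside the rule for named genes here and was chosen after its values were seen.

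Top2a, the topoisomerase that untangles sister chromatids, averaged 227 ± 32.8 CPM in WT under vehicle, and 421 ± 83.5 CPM in WT under MS-275 (SD, n = 3), a log2 fold change of 0.89 (edgeR adjusted p = 0.0544). Mki67, a common marker of cycling cells that coats mitotic chromosomes, measured 304, 250.2 and 254 CPM in WT under vehicle, and 317, 369 and 368 CPM in WT under MS-275. In the Runx2+/- groups it measured 329.5, 292 and 277 CPM under vehicle and 493, 467 and 309.5 CPM under MS-275. With TMM its WT groups did not overlap but nearly met, and the log2 fold change of 0.38 (SE 0.22) did not pass (edgeR adjusted p = 0.189). On total counts alone the order was reversed, with 401, 326 and 300 CPM in WT under vehicle and 260, 268 and 220 CPM in WT under MS-275. Per kilobase of the longest transcript, Pcna (58.9 CPM per kb), Top2a (43.5) and Mki67 (26.8) were the 3 most abundant members in WT vehicle. Fen1 was lowest at 0.181, a level left uncertain by its overlap with Gm10143. Without regard to the test, the WT groups did not overlap for 8 replication genes higher and 1 lower, and for 15 mitosis genes higher and 2 lower, where 27.3% of all genes were so separated upwards and 27.5% downwards. Scaled to total counts alone, the same counts were 4 higher and 11 lower and 2 higher and 14 lower, where 7.7% and 59.8% of all genes were so separated.

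**Figure D2:**
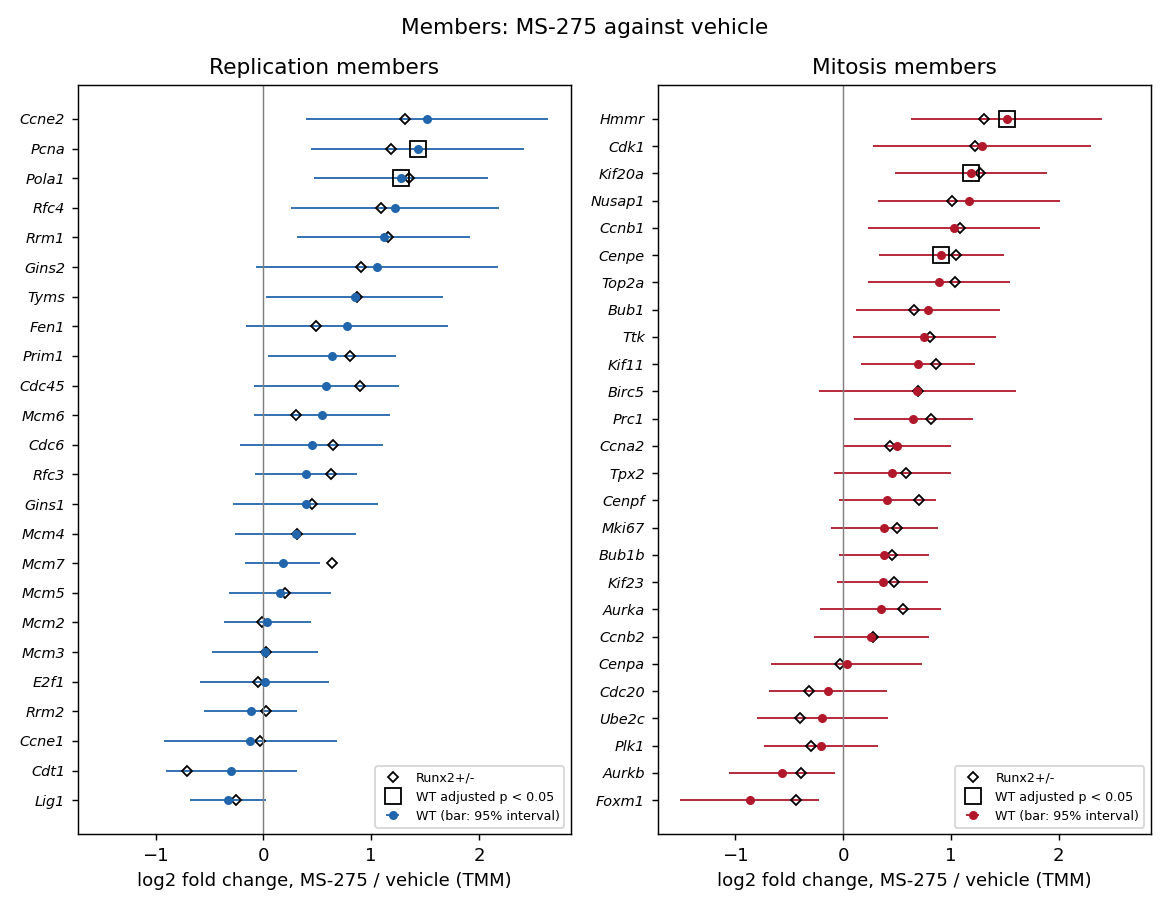
Log2 fold change of MS-275 over vehicle (horizontal axis, TMM scaling) for the 24 replication and 26 mitosis members, sorted by the WT value. Filled points with bars are WT values with 95% intervals, open diamonds are Runx2+/- values and squares mark the 5 WT members with an adjusted p under 0.05; 20 of 24 and 21 of 26 WT points lie right of 0 with this scaling.

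In Runx2+/- calvaria no member passed the test, and neither did any other gene (0% of 17967 called in either direction by edgeR). With TMM the median log2 fold changes were 0.56 for replication and 0.62 for mitosis genes, beside -0.04 for all genes tested. Scaled to total counts alone they were -0.006 and 0.004, beside -0.48. At an unadjusted p under 0.05 lay 11 of 24 replication and 15 of 26 mitosis genes, against 3782 of the 17967 genes. DESeq2 called 3 replication and 7 mitosis members, all higher, where it called 4.52% of all genes higher. The members with the smallest p were Mcm7 (0.63), Pola1 (1.35) and Rrm1 (1.16) among the replication genes, and Kif20a (1.27), Cenpe (1.04) and Kif11 (0.86), the motor that separates spindle poles, among the mitosis genes, all with an edgeR adjusted p of 0.181. Mcm7 measured 64.7, 67.5 and 55.9 CPM under vehicle and 118, 84.4 and 89.5 CPM under MS-275 in Runx2+/-. For Mcm7 the third MS-275 library lay above the vehicle range with the other 2. In Runx2+/- the groups did not overlap for 5 replication genes higher and 1 lower and for 8 mitosis genes higher, where 6.33% of all genes were separated upwards and 8.56% downwards. Scaled to total counts alone, 2 replication and 6 mitosis genes were separated upwards and 3 and 3 downwards, beside 2.05% and 15% of all genes. Mcm7 shares short exonic stretches with 4 other genes, so its counts are less certain.

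The Runx2+/- comparison turned on 1 library. Runx2+/- MS-275 replicate 3 lay within the range of the 6 vehicle libraries for 33 of the 50 members. The other 5 MS-275 libraries lay above all 6 vehicle libraries for 19 members and below them for 3, Lig1, Aurkb and Foxm1. That split was made after the values of the library were seen. No share over all genes stands beside these counts, so they do not set the members apart. Without that library, edgeR called 11 replication and 17 mitosis members higher and 1 mitosis member lower in Runx2+/-, where 18.5% of all 18216 genes tested were called higher and 14.2% lower. The WT counts also moved, to 6 replication and 14 mitosis members higher and 2 mitosis members lower, beside 22.2% of all genes higher and 24.4% lower, because the 4 groups share 1 estimate of the spread. With all 3 libraries that stand apart left out, 11 replication and 18 mitosis members were higher and 1 mitosis member lower in WT, beside 28.5% and 31.8% of all genes. In Runx2+/- they were 14 and 20 higher and 1 and 1 lower, beside 23.9% and 28.9%. After this removal lens markers were at 783 to 1095 CPM in every vehicle library left and at most 12.4 CPM in every MS-275 library left. Treatment and the tissue sampled thus cannot be told apart in these larger counts. With TMM the highest of the 12 libraries was Runx2+/- MS-275 replicate 1 for 35 of the 50 members, WT vehicle replicate 3 for 14 and WT MS-275 replicate 3 for 1. Scaled to total counts alone, WT vehicle replicate 3 led, with 20 members, and Runx2+/- MS-275 replicate 1 had 11. With TMM the members highest in WT vehicle replicate 3 included Mcm2, Mcm3, Cdt1, E2f1, Cdc20, Plk1, Aurkb and Foxm1.

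The genotypes were compared within each treatment. Under vehicle no member passed the test of Runx2+/- against WT, no gene of the 17967 was called by edgeR (0%), and no member had an unadjusted p under 0.05 (55 of all genes did). DESeq2 also called 0 members and 0 genes there. The median log2 difference was -0.08 for replication and 0.01 for mitosis genes, from -0.30 for Cdt1 to 0.21 for Fen1. The intervals remained wide: Pcna differed by 0.08 with a 95% interval of -0.89 to 1.05, and Mki67 by 0.15 with an interval of -0.34 to 0.65. The members with the smallest p were Cdt1 (-0.30), E2f1 (-0.22), Mcm5 (-0.16), Cdc20 (-0.22), Plk1 (-0.21) and Cenpf (0.14), all with an edgeR adjusted p of 1.00. All but Cenpf changed sign without WT vehicle replicate 3. The WT and Runx2+/- groups overlapped for every member, where 2.69% of all genes were separated upwards and 2.09% downwards.

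Under MS-275 edgeR again called no member and no gene (0%), and DESeq2 called 0 members among 564 genes higher and 138 lower in Runx2+/-. The medians were -0.06 for replication and 0.05 for mitosis genes. The smallest unadjusted p values of members by edgeR were 0.0268 for Cdt1 and 0.0418 for Mcm7, and neither passed after adjustment. Cdt1, the licensing factor, measured 18.4, 12.9 and 11.7 CPM in WT MS-275 and 7.43, 9.41 and 9.36 CPM in Runx2+/- MS-275, so the groups did not overlap. Its log2 difference was -0.72 (95% interval -1.33 to -0.10, edgeR adjusted p = 0.283), and 7.52% of all genes were separated in that direction. In all, 2 replication and 2 mitosis genes were separated downwards, and 1 replication gene, Mcm7, upwards, as were 9.13% of all genes. Scaled to total counts alone, the balance was the reverse, with 5 replication and 10 mitosis genes upwards and 0 downwards, beside 10.5% and 2.83% of all genes. With TMM, Mcm7 had 0.36 in the other direction (edgeR adjusted p = 0.304), E2f1 had -0.28, Cenpf 0.44, Cdc20 -0.39 and Foxm1 0.40. The test of whether the MS-275 difference itself depended on genotype called no member and no gene (0%), with medians of 0.03 and 0.06. The smallest p values in it were those of Mcm7 (0.45, 95% interval -0.04 to 0.95), Cdt1 (-0.41) and Rfc3 (0.23), and of Foxm1 (0.43), Cenpf (0.30) and Aurka (0.20), with edgeR adjusted p of 0.873 to 0.917. DESeq2 called 38 genes higher in that test and no member.

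The direction of the members as a set depended on how libraries were scaled. TMM places the middle of all genes near 0, whereas scaling to the total count alone moved the median WT log2 fold change of all genes by 0.82, from -0.13 to -0.95. On that scale the medians of the members were -0.43 for replication and -0.35 for mitosis genes. There edgeR called 4 replication and 5 mitosis members lower and 1, Hmmr, higher, beside 39% of all genes lower and 2.93% higher. The 5 members called with TMM kept a value above 0 on that scale, from 0.05 for Cenpe to 0.65 for Hmmr, of which Hmmr alone passed (edgeR adjusted p = 0.0445). Pcna, for example, then averaged 112 CPM in WT vehicle and 166 CPM in WT MS-275. Relative to the median of all genes, the medians of the members were 0.55 and 0.60 with TMM and 0.52 and 0.60 with the total count, a distance that a change of scaling leaves nearly fixed by construction. As a share of all counts, the 50 members summed to 0.274% to 0.339% in the vehicle libraries and 0.266% to 0.346% in the MS-275 libraries, ranges that overlap.

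**Figure D3:**
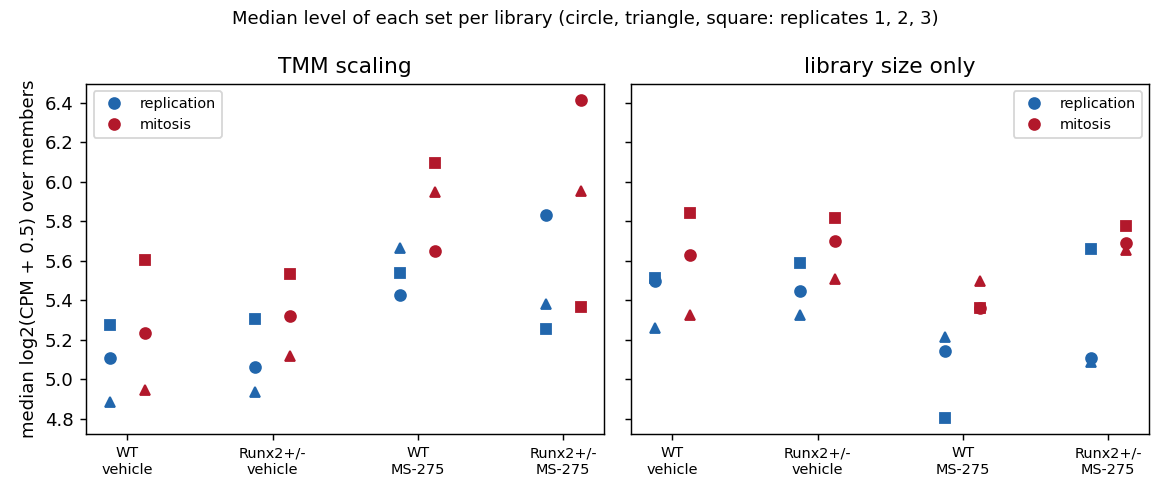
Median over the replication (blue) and mitosis (red) members of log2(CPM + 0.5) in each library, by group, with TMM scaling on the left and scaling to total counts alone on the right. With TMM the WT MS-275 libraries lie above the WT vehicle libraries, and with total counts they do not; the square of Runx2+/- MS-275 lies near the vehicle libraries on the left.

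The distance between replication and mitosis genes was read in each library. The mean log2 level of the mitosis genes minus that of the replication genes was 0.63 to 0.75 in the 6 vehicle libraries and 0.68 to 0.94 in the 6 MS-275 libraries. This distance does not depend on the scaling of a library beyond the pseudocount of 0.5 CPM, and it carries the lengths of the transcripts, so only its change between libraries can be read. Its ranges overlapped between treatments, and the highest value, 0.94, was that of Runx2+/- MS-275 replicate 2, with the other 11 libraries at 0.63 to 0.77.

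A property the list did not use, the GC content of the transcript, ordered the members by their response. The longest annotated transcript ranged from 36.3% GC (Ccne2) to 58.8% (Cdt1) with a median of 47.6%. The WT log2 fold change fell with GC content across the 50 members, with Pearson's r = -0.72 and Spearman's rho = -0.71. These are correlations across genes of the same 12 libraries, which are not independent replicates, and they are given as a description. Across the 17759 tested genes with a GC value rho was -0.24, and across 70 other replication and mitosis genes it was -0.71. The 25 members with the lower GC content had a median of 0.70, with 24 of 25 above 0. The 25 with the higher GC content had a median of 0.18, with 17 above 0. Hmmr, Pola1, Cenpe and Pcna had 41.8%, 41.5%, 42.9% and 45.3% GC, whereas Foxm1, Aurkb, Lig1 and Cdt1 had 54.6%, 52.5%, 53.6% and 58.8%. Kif20a, the other called member, had 48.4% GC, above the median, with a WT log2 fold change of 1.18. Gins2 at 53.4% GC was a further exception with 1.05, and its exons overlap those of Gse1. In Runx2+/- the correlation over the members was r = -0.77 and rho = -0.72.

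**Figure D4:**
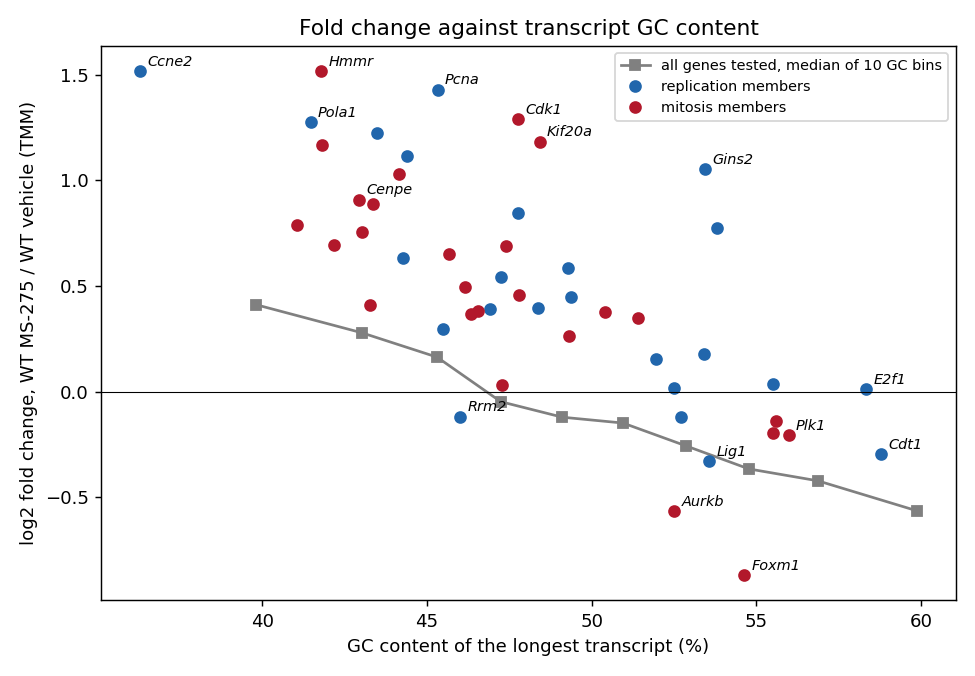
WT log2 fold change of MS-275 over vehicle (vertical axis, TMM scaling) against the GC content of the longest transcript (horizontal axis, percent) for replication (blue) and mitosis (red) members, with the median of all tested genes in 10 bins of GC content as grey squares. The values fall from left to right in the members and, less steeply, in all genes, from 0.41 in the bin of lowest GC to -0.56 in the highest.

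The same ordering could be read inside single libraries without any scaling between them. The mean log2 level of the 25 low-GC members minus that of the 25 high-GC members was 0.84 to 1.12 in the 6 vehicle libraries and 1.20 to 1.79 in the 6 MS-275 libraries, so the treatments did not overlap. Runx2+/- MS-275 replicate 3 had the lowest MS-275 value. The same difference over all tested genes was 0.11 to 0.41 in vehicle and 0.35 to 0.87 in MS-275 libraries, which overlapped. Runx2+/- and WT vehicle, between which no gene was called, also showed the ordering by GC, with rho = -0.66 over the members and -0.39 over all genes. The share of counts from mitochondrially encoded genes (4.32% to 5.52% in vehicle, 9.48% to 24.2% in MS-275) and of reads in no annotated gene (10.5% to 16.8% in vehicle, 5.21% to 8.65% in 5 MS-275 libraries and 22.2% in Runx2+/- MS-275 replicate 3) moved with treatment as well. Their part in the result was not tested. With a GC offset per library, an alternative chosen after the data were seen, rho over the members was -0.35, the WT medians were 0.38 and 0.34, and edgeR called no replication member and 2 mitosis members, Hmmr (adjusted p = 0.0483) and Kif20a (adjusted p = 0.0475), where 6.31% of all genes were called higher and 6.82% lower.

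**Figure D5:**
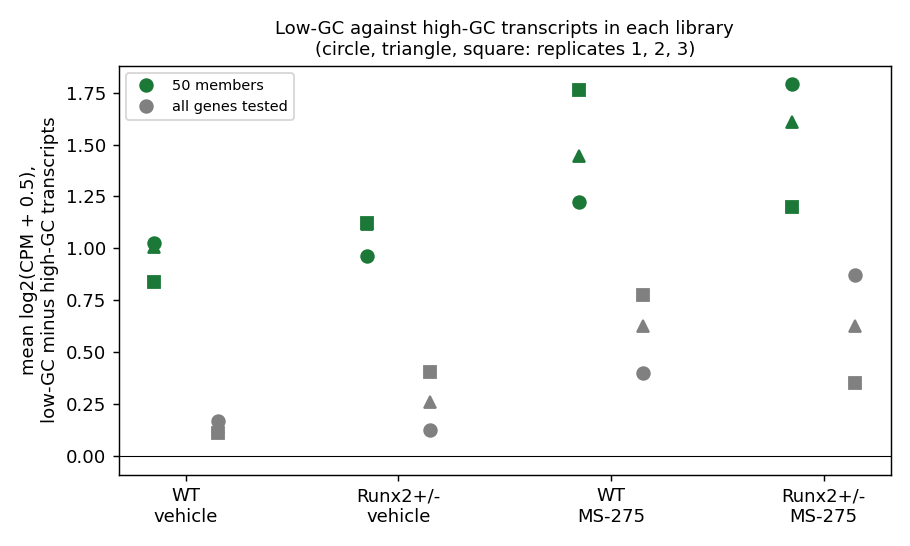
Mean log2(CPM + 0.5) of low-GC minus high-GC transcripts in each library (vertical axis), for the 50 members (green) and for all tested genes (grey), by group, with circle, triangle and square for replicates 1, 2 and 3. The member values are 0.84 to 1.12 in vehicle and 1.20 to 1.79 in MS-275 libraries.

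The log2 fold changes of the members were also read by promoter motif, as a description. In WT the 10 members with an E2F match had a median of 0.29 on the log2 scale and the 31 without one 0.63, while the 19 with a CHR match had 0.38 and the 22 without 0.59. In Runx2+/- the corresponding medians were 0.46 and 0.70 for E2F, and 0.50 and 0.65 for CHR. For the CCAAT motif they were 0.41 with and 0.57 without in WT, and 0.63 with and 0.56 without in Runx2+/-. Members with an E2F match had a median transcript GC of 50.7% and those without 46.3%, while the CHR split was nearly even in GC (47.8% and 47.3%). Pola1, with an E2F match and a low GC content, was among the genes that rose, and Cdk1, with both motifs, had 1.29.

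Other genes of the cell cycle were read in the same fit, with WT log2 fold changes given. Of 7 inhibitors of cyclin-dependent kinases 6 were tested, and 0 passed: Cdkn1a had 0.29, Cdkn1b -0.32, Cdkn1c 0.72, Cdkn2b -0.11, Cdkn2c 0.34 and Cdkn2d 0.54, and Cdkn2a was below the count filter. None of 6 G1 cyclins and their kinases passed. Among 17 E2F, pocket protein and MuvB genes, E2f5 rose by 0.88, while 4 fell: E2f2 by 1.39, E2f8 by 1.19, E2f7 by 0.92 and Rb1 by 0.81. E2f7 and E2f8 are repressors of E2F targets, and Rb1 encodes the pocket protein that restrains E2F factors. These roles are not those of E2f2, which had the largest fall, and no role is given here for E2f5, which rose. In WT the 10 members with an E2F promoter match had a median of 0.29, and the 31 without one 0.63. These sets also differed in median transcript GC (50.7% and 46.3%). The matches lay in 9 replication promoters and 1 mitosis promoter, so the split also follows the replication and mitosis lists in part. Whether the changes in the E2F list had a part in the levels of the members was not tested. Among 32 other replication genes, Rpa3 (1.29), a subunit of the single-strand binding protein, and Orc5 (1.09) and Orc3 (0.99), of the origin recognition complex, rose, and Ticrr, which helps Cdc45 load, fell by 0.68. Among 38 other mitosis genes, Pttg1 (securin, 1.32), Ncapg (1.08) and Smc4 (0.91), both condensin subunits, rose, and Fzr1, an activator of the anaphase-promoting complex, fell by 0.82. The medians were 0.32 for the kinase inhibitors, 0.18 for the G1 genes, -0.07 for the E2F list, 0.23 for other replication and 0.49 for other mitosis genes. The calls with TMM stand beside 9.67% of all genes called higher and 9.33% lower. On the scale of total counts these medians were all below 0, from -0.35 to -0.89. There edgeR called 0 of these genes higher and 1, 1, 11, 13 and 13 lower, in the order of the lists. Of all genes, 2.93% were called higher and 39% lower on that scale. These counts were not tested against those shares. In each of the other 4 comparisons edgeR called 0 of these genes.

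Markers of the cell types of this tissue moved with treatment beside the members, and in bulk RNA fewer cells of a type and less RNA per cell cannot be told apart. Osteoblast markers summed to 10720 to 15504 CPM in WT vehicle, 8416 to 22219 CPM in Runx2+/- vehicle, 65299 to 81574 CPM in WT MS-275 and 70350, 40336 and 3607 CPM in Runx2+/- MS-275, the last of these being replicate 3. Erythroid markers (12 of 12 found) summed to 2725 to 6226, 3861 to 8872, 5314 to 27793 CPM in the same order, and to 23353, 12916 and 2517 CPM in the Runx2+/- MS-275 replicates. Endothelial markers (7 of 7) summed to 285 to 423, 253 to 347, 587 to 802 CPM and to 855, 667 and 231 CPM, and myeloid markers (7 of 7) to 126 to 251, 117 to 162, 339.9 to 388 CPM and to 384, 335 and 123 CPM. Basal epidermal markers (7 of 7), of the dividing layer of skin, summed to 628 to 1208, 452 to 1055, 67.9 to 107 CPM and to 98.0, 95.01 and 801 CPM. In each of these 5 lists Runx2+/- MS-275 replicate 3 lay outside the range of the other 5 MS-275 libraries. Suprabasal epidermal markers (7 of 8 found) summed to 999.98 to 3549 CPM in WT vehicle and to 8.60 to 11.4 CPM in WT MS-275, where Casp14 was at 0 in all 3 libraries. Lim2, a lens marker, was at 0 in all 6 MS-275 libraries. The part of any of these cell types in the levels of the 50 genes was not tested.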

How the data were processed

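Total RNA from 12 calvaria libraries, prepared with a stranded total RNA kit per the labels' protocols, was analysed from read counts per Ensembl gene, whole numbers deposited by the authors without normalization. Per the submitters' processing notes, reads were processed by the authors with HTSeq, SAMtools, Bowtie2 and Trimmomatic. The strand setting and the versions are not given in the sources used here. The notes name the human build GRCh38.p7, while the identifiers in the deposited counts are mouse. The 5 summary entries of each file that name no gene were left out of library sizes. Reads in no gene were 5.21% to 22.2%, and identifiers without a symbol held 0.217% of the counts.

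Symbols were matched by gene identifier (37607 of 39179), and positions and transcript GC came from GENCODE M21 (GRCm38). Genes were kept by filterByExpr (minimum count 10) over the 4 groups, scaled by TMM and fitted with 4 group means over all 12 libraries (8 residual degrees of freedom) by edgeR 4.0.16 in R 4.3.3, with its robust two-sided quasi-likelihood test and Benjamini-Hochberg adjustment over all 17967 genes at 0.05. The common biological coefficient of variation was 0.442. Levels on a log scale use log2(CPM + 0.5). The script was tested on simulated data. Alternatives used limma 3.58.1, DESeq2 1.42.0, other scalings and filters, a replicate block and fewer libraries. The GC offset, with and without the block, and the removal of 3 libraries together were chosen after seeing the data. Depth was 13307456 to 19399760 counts in genes, and counting error is not the whole error of reads without molecular identifiers.

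The members, the lists of other cell cycle genes and the cell type markers were chosen with earlier results of these data known, so no p-value was taken over a list. Named genes were all members past the threshold and, where fewer than 3 of the replication or mitosis genes passed, those with the smallest p up to 3. Of the other lists, genes past the threshold were named, at most 6 per list, and all kinase inhibitors. Other genes in the text were named by role after their values were seen.

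Replicate numbers were checked for pairing by the correlation of same-numbered libraries' deviations from their group means. Between the vehicle groups these were 0.220, 0.752 and 0.812. However, WT vehicle replicate 1 had 0.679 with Runx2+/- vehicle replicate 2, above the 0.220 with its own number. The value of 0.812 belongs to the replicates 3, the vehicle libraries with few lens markers. These correlations thus do not settle whether the numbers pair samples, and the main fit used no pairing. The marker lists read were osteoblast, osteoclast, suprabasal and basal epidermis, erythroid, neuron, neural progenitor, glia, skeletal muscle, adipocyte, lens, myeloid, endothelial and chondrocyte. Those not given with the results summed, in WT vehicle and WT MS-275, to 225 to 478 and 2021 to 2302 CPM (osteoclast), 208 to 2463 and 85.2 to 492 (neuron), 152 to 438 and 87.4 to 325 (neural progenitor), 159.8 to 240.2 and 326 to 472 (glia), 2440.5 to 5019 and 241 to 1866 (muscle), 80.8 to 361 and 202 to 263 (adipocyte), and 335 to 897 and 464 to 1273 (chondrocyte).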

Additional observations from a re-analysis of the deposited data

How the results depend on the processing

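The counts of WT members called depended on the processing. Of the 2 replication and 3 mitosis members, 1 replication member was called with median-of-ratios factors or upper-quartile scaling, 4 and 6 were called in either direction with library size only, 5 and 12 with DESeq2 (3326 of 17967 genes higher, 3897 lower), 0 and 0 with limma-voom (which called 0 genes higher and 1 lower), 0 and 0 with no filter, 6 and 11 when only the 2 groups were fitted (3448 of 16505 genes higher, 3861 lower), 11 and 19 without the 3 libraries that stand apart, and 0 replication members with the GC offset. With the replicate block 0 and 0 were called, and 0 and 0 with the GC offset and the block together; at an unadjusted p under 0.05 the block left 5 and 12, and 7103 of 17967 genes. Same-numbered libraries did not deviate together between treatments (r = -0.0416, -0.409 and -0.311 in WT), so there the block pairs samples that share only a number. Between the vehicle groups the block changed no call. Leaving out single libraries gave 0 to 6 replication and 0 to 16 mitosis members in WT, and 0 to 11 and 0 to 18 in Runx2+/-. The highest of these counts came without Runx2+/- MS-275 replicate 3. In WT 22.2% of all genes were then called higher and 24.4% lower, and in Runx2+/- 18.5% and 14.2%. For median-of-ratios factors and upper-quartile scaling no share of all genes is given here.

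In Runx2+/- DESeq2 called 3 and 7 members, and 15 and 21 were called without the 3 libraries. Without these 3 libraries, lens markers split fully by treatment, so those counts in both genotypes also carry the tissue sampled. With library size only the medians were -0.43 and -0.35 in WT, -0.006 and 0.004 in Runx2+/-, 0.19 for replication genes between genotypes under MS-275 and 0.25 in the interaction. Leaving out single libraries moved the replication median between 0.26 and 0.66 in Runx2+/-, between -0.31 and 0.13 between genotypes under MS-275, and between -0.24 and 0.19 in the interaction.

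Some small differences reversed. Between genotypes under vehicle, leaving out single libraries gave -0.46 to 0.003 for Cdt1, -0.43 to 0.16 for E2f1, -0.31 to 0.03 for Mcm5, -0.40 to 0.083 for Cdc20 and -0.36 to 0.025 for Plk1, and Mcm5 and Plk1 had 0.056 and 0.014 without the 3 libraries. Under MS-275, E2f1 had 0.085 with library size only and Foxm1 -0.037 without the 3 libraries. In the interaction Foxm1 had -0.11 without the 3 libraries, and Aurka ranged from -0.042 to 0.37 without single libraries. The causes were not tested. Apart from library size only, the medians of MS-275 against vehicle were above 0 in both genotypes in every setting run. With 3 libraries a group the intervals were wide, from 0.44 to 2.42 for Pcna in WT.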
